A study of Mus musculus with 9 samples.

Results

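The inflammatory cytokine and NF-kB genes considered here are 45 named genes of 1 signalling system, from the NF-kB subunits and their inhibitors to the receptors that switch the pathway on and the cytokines, chemokines and other genes it is known to induce. Every probe that carries the symbol of a member was taken, without use of any measured value, which gave 62 of the 25697 probes on the array and 43 of its 17914 genes. Ccl8 and Cxcl5 were not analysed here, since no probe carried their symbols. The cells were primary calvarial osteoblasts of newborn mice, taken from the flat bones of the skull roof, and their total RNA was read on 9 Illumina bead arrays. All cells, those of the control groups included, carried a lentivirus from which doxycycline (dox) switches on RUNX2, a transcription factor required for bone formation. The culture medium held 20% serum stripped of steroid hormones with charcoal, and the cells were treated for 48 h with vehicle (n = 2), with 500 ng/ml dox (n = 2), with 10 nM oestradiol (E2, n = 3) or with dox plus E2 (n = 2). No group received dox without carrying the lentivirus, so the drug and the induced RUNX2 cannot be told apart.

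NF-kB is a family of dimeric transcription factors that inhibitor proteins hold in the cytoplasm of resting cells. Receptors for bacterial products, for tumour necrosis factor and for the interleukins that act through MyD88 activate a kinase that marks the inhibitors for destruction, and the freed dimers enter the nucleus and switch on cytokines, chemokines, adhesion molecules and their own inhibitors. In bone, osteoblasts make cytokines and chemokines that draw in osteoclast precursors and help them mature, and oestrogen is known to restrain the production of several of them. Whether oestradiol opposes the effects of RUNX2 on what osteoblasts send to osteoclasts is the question that the title of the study states.

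The RefSeq promoters of several of these genes carry the sequence that NF-kB dimers bind, and 7 are shown because the genes sit at different levels of the pathway and differ in whether a message was measured. Each line gives the 180 bases that end at the base before the annotated transcription start, 5′ to 3′ on the strand of the gene, from the GRCm38.p6 assembly. Capitals mark the letters that match the NF-kB consensus of 10 bases on either strand, and overlapping matches run together.
Nfkbia: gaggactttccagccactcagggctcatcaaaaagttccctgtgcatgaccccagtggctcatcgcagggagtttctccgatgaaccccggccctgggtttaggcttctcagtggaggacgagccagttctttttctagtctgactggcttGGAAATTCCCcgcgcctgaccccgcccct
Nfkb2: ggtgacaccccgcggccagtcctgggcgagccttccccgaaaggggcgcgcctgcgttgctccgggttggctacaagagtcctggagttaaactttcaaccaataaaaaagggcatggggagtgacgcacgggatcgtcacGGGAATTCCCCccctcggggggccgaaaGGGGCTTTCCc
Irf1: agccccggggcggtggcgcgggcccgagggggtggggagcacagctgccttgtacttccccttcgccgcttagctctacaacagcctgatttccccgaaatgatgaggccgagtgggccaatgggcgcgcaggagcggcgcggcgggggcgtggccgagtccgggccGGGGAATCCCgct
Tlr2: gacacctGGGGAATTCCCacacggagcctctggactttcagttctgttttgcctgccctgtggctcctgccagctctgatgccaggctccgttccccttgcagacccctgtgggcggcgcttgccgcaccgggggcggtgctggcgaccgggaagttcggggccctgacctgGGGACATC
Il6: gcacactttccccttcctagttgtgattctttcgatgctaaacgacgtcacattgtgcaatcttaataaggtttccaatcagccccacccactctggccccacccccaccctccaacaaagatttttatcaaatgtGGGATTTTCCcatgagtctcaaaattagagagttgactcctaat
Cxcl1: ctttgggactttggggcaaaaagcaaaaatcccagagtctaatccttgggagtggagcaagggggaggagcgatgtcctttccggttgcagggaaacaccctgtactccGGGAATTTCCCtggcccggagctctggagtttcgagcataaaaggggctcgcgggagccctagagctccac
Cxcl2: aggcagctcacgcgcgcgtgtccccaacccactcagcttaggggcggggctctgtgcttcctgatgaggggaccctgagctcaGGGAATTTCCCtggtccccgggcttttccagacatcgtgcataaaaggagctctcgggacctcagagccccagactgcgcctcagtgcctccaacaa
The first of these encodes an inhibitor, followed by a subunit, a transcription factor, a receptor, a cytokine and a pair of chemokines. They lie at chr12:55492648-55492827 (minus strand, Nfkbia), chr19:46304557-46304736 (plus strand, Nfkb2), chr11:53769834-53770013 (plus strand, Irf1), chr3:83841609-83841788 (minus strand, Tlr2), chr5:30012934-30013113 (plus strand, Il6), chr5:90891065-90891244 (plus strand, Cxcl1) and chr5:90903719-90903898 (plus strand, Cxcl2). Of the members, 36 had a promoter window of 300 bases (250 before and 50 after a start), and 13 had the consensus in at least 1 window: Nfkb2, Nfkbia, Nfkbie, Tnfaip3, Tlr2, Il1r1, Il6, Ccl9, Cxcl1, Cxcl2, Cxcl10, Sod2 and Irf1. Counted by window, 15 of the 44 member windows held it (34.1%), against 4.51% of all 32851 windows in the table. The match begins at -29 in the Nfkbia promoter, at -44 in Il6 and at -13 in Irf1, where -1 is the base before the start, and the match of Tlr2 at -8 runs past the start, so only its first letters are printed. A match is a description of the letters and not of binding, and these genes entered the list as known members of the pathway.

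Among the members, most signalling genes were above background and most cytokines and chemokines were not. A probe was taken as above background on an array at a detection p under 0.05, where the detection p ranks its signal among negative control probes, and a gene was tested when a probe reached this on at least 2 arrays. By this rule 25 of the 43 genes were above background (58.1%, against 53% of all genes on the array) and so were 33 of the 62 probes (53.2%, against 50.2% of all probes). All 4 NF-kB subunits, 4 of 6 inhibitors and feedback genes and 8 of 10 receptors and adaptors were above background, which makes 16 of 20 signalling genes. Some of these were dim. For example, signals of Nfkb2 (138.4 to 209.95), Nfkbib (140.5 to 217.1), Il1r1 (150.3 to 230.4) and Traf2 (151.1 to 205.3) overlapped those of genes below background. Of 15 cytokines and chemokines with a probe, 4 were: Il18, Ccl5, Ccl7 and Ccl9. This contrast holds for the members only. Of 36 further inflammatory output genes with a probe, 21 were above background on at least 2 arrays. Of the 36, 12 were so on all 9 arrays, the secreted Csf1 and Cxcl12 among them, and 14 on none. These shares compare probes of different design, so they describe the array as much as the cells.

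**Figure D1:**
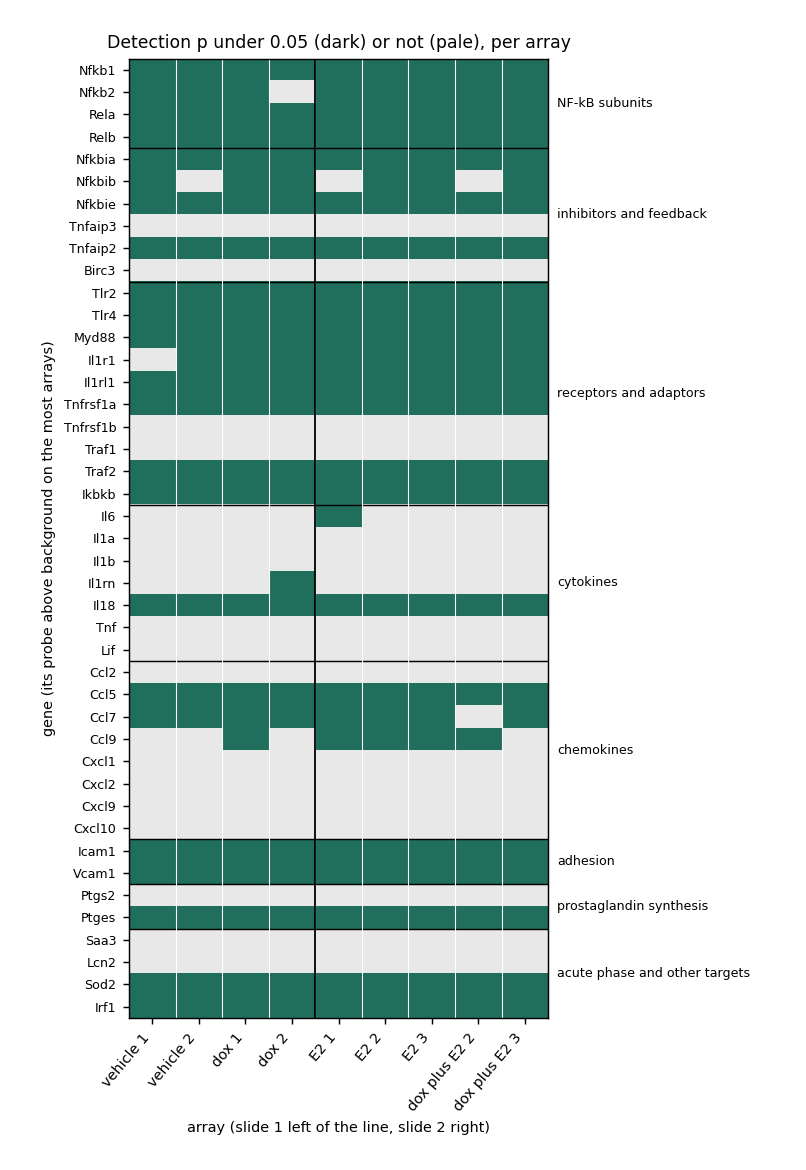
Detection of the 43 genes with a probe (rows, grouped by role) on each of the 9 arrays (columns); dark cells have a detection p under 0.05 and the vertical line separates the slides. Of the 20 signalling genes 16 are dark on most arrays, whereas cytokines and chemokines are pale except Il18, Ccl5, Ccl7 and Ccl9 and a single array each for Il6 and Il1rn.

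The 18 genes below this limit included most of the classical inflammatory outputs among the members. Signals of their probes lay between 89.6 and 184.7, on arrays whose lowest signals of any probe were 80.6 to 102.9. Tnf, which encodes tumour necrosis factor, reached a lowest detection p of 0.497 and so lay near the middle of the controls at best. Lcn2, an iron-binding acute phase protein, had a lowest detection p of 0.684. The lowest p was 0.325 for Ccl2, the main attractant of monocytes, and 0.15 for Ptgs2, the inducible cyclooxygenase that makes the prostaglandin precursor. For Cxcl1 and Cxcl2, attractants of neutrophils whose promoters are printed above, the lowest values were 0.0639 and 0.164. Those of Cxcl9 and Cxcl10, chemokines best known as interferon targets, were 0.286 and 0.231. Il1a and Il1b, the agonists of the receptor encoded by Il1r1, had lowest values of 0.208 and 0.14, and Lif, a cytokine named for its effect on leukaemia cells, had 0.0602. Il6 was above background on 1 array, E2 replicate 1 (detection p 0.0426), and Il1rn, the natural antagonist of the same receptor, on 1 array, dox replicate 2 (detection p 0.0263). Saa3, an acute phase protein (lowest p 0.0639), and the feedback genes Tnfaip3 and Birc3 (0.203 and 0.307) were also below background. Tnfaip3 encodes a deubiquitinase that shuts NF-kB signalling off, and Birc3 a ubiquitin ligase at the tumour necrosis factor receptors. The receptor gene Tnfrsf1b (0.0589) and the adaptor gene Traf1 (0.352) completed the group. For these 18 genes the arrays give only an upper bound on the message, and no fold change is given.

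Markers of other cell types were checked on the same arrays, since macrophages and endothelial cells express many of these genes. Of 10 macrophage markers, 8 were above background on no array, among them Ptprc, Csf1r, Adgre1, Itgam and Cd68, and Lyz2 was above background on 6. Their summed levels, on the linear scale of the normalized values, ran from 329 to 347 in vehicle, 333 to 355 in dox, 342 to 362 in E2 and 348 to 374 in dox plus E2. All 5 lymphocyte and all 4 granulocyte markers with a probe were above background on no array. Of 6 endothelial markers, 4 were above background on no array, Pecam1 and Cdh5 included, while Tek was on 6 and Kdr on 2. Of 6 osteoclast markers, 3 were above background on at least 2 arrays: Ctsk on all 9, Oscar on 7 and Acp5 on 2. Calcr, Ocstamp and Dcstamp were above background on no array. Of 10 osteoblast markers with a probe, 7 were above background on all 9 arrays, while Ibsp, Dmp1 and Runx2 were on none. The Runx2 probe therefore does not check the induction in any array, and the species of the expressed RUNX2 is not given in the labels. Of the 7 tested osteoblast markers, 2 were higher at a limma adjusted p under 0.05 in dox plus E2 against E2 (0.0738% of all genes were). In all dox arrays against all others 2 also were (0.105%), and in dox against vehicle none was (0.0316%). Log2 levels of Sp7 were 8.55 and 8.48 in vehicle, 9.16 and 9.14 in dox, 8.78, 8.61 and 8.88 in E2, and 9.45 and 9.50 in dox plus E2.

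Across the study, none of the 25 tested members passed an adjusted p of 0.05 in any of the 6 comparisons (limma, Benjamini-Hochberg over all 9490 tested genes). The arrays of vehicle and dox lay on 1 slide and those of E2 and dox plus E2 on the other, so slide and E2 cannot be told apart, while the dox comparisons lie within a slide. On both slides the arrays without dox held the earlier positions, so dox and position cannot be told apart either. Between 11554 and 12206 probes per array were above background, and every pair of arrays within a group correlated at 0.992 or more over the tested genes. The labels do not state whether replicates are different cultures or animals; the p-values therefore rest on the scatter among these samples, part or all of which may be technical. A change in such bulk RNA can come from more message per cell or from more cells that carry it, and these cannot be told apart.

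Without E2, dox left the tested members close to their vehicle levels. The log2 changes of dox against vehicle ran from -0.56 to 0.29 with a median of -0.06, where the median of all genes was -0.01, and 8 of 25 were positive (32%, against 47.5% of all genes). None passed the adjusted threshold, against 0.0316% of all genes, and 3 members (12%) had an unadjusted p under 0.05, against 6.77% of all genes. These were Nfkb2, Irf1 and Ikbkb, all with lower values in dox. The dox and vehicle arrays did not overlap for 8 members (32%), against 38.1% of all genes. For 24 of the 25 genes the 95% interval of the change lay within 2-fold in either direction, and for 16 within 1.5-fold.

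**Figure D2:**
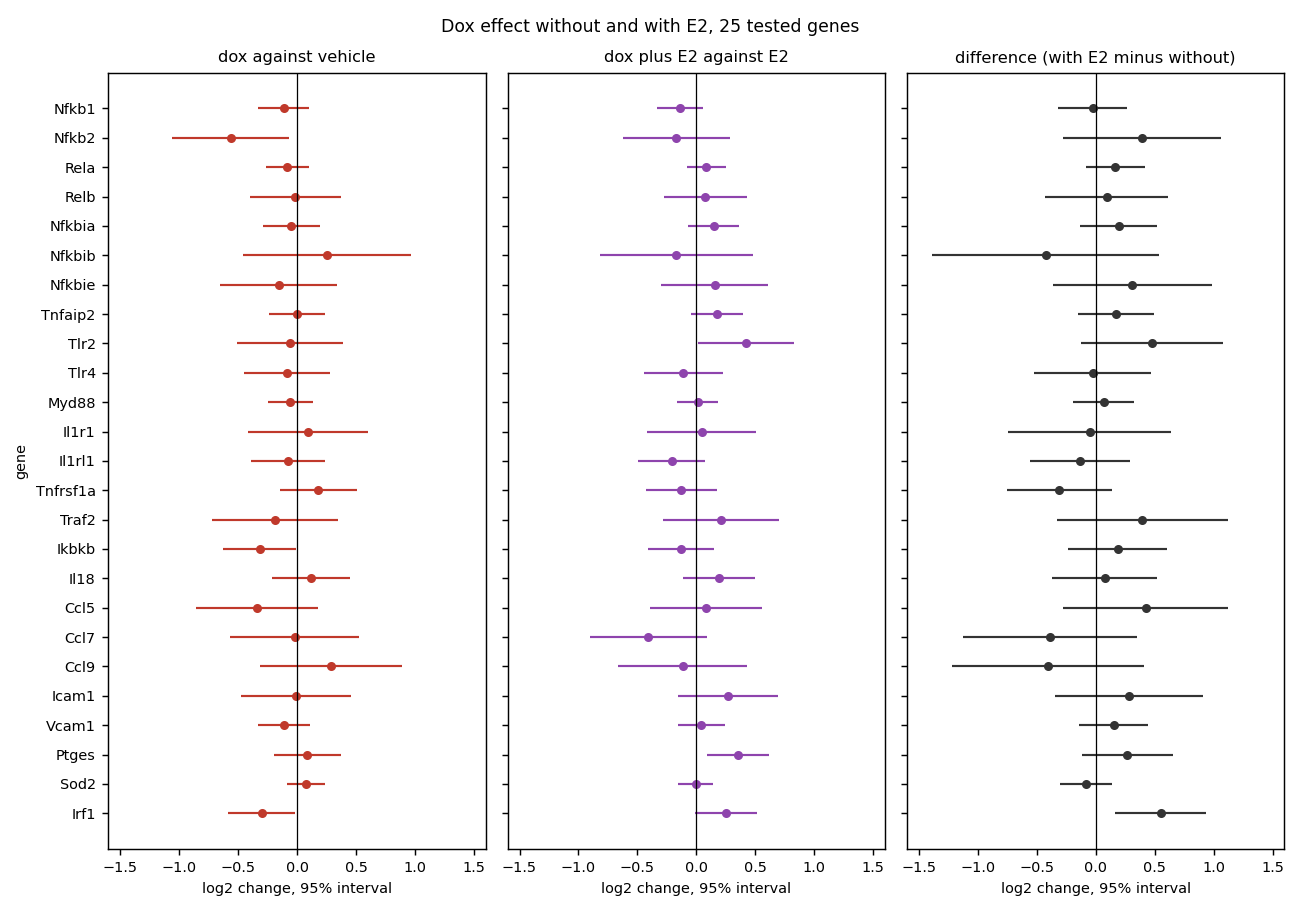
Log2 change (points) with its 95% interval (lines) of the 25 tested genes for dox against vehicle, for dox plus E2 against E2, and for the difference of these dox effects. Nfkb2, Ikbkb and Irf1 lie below 0 with intervals that stop short of it in the first panel, Tlr2 and Ptges lie above 0 in the second, and Irf1 alone does so in the third; none passed after adjustment over all genes.

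Nfkb2 encodes the precursor of a DNA-binding subunit of the noncanonical branch of the pathway. Its normalized log2 levels were 6.24 and 6.17 in vehicle, 5.66 and 5.62 in dox, 6.13, 6.16 and 6.04 in E2, and 5.86 and 6.02 in dox plus E2. Both dox arrays were below every other array, and dox replicate 2 was not above background. The change was -0.56 ± 0.24 (SE) without E2 (limma adjusted p = 0.68) and -0.17 ± 0.22 with E2 (adjusted p = 0.93). The difference between them was 0.39 ± 0.33 (adjusted p = 0.86). Over all dox arrays against all arrays without dox, with slide as a block, Nfkb2 was the 1 member whose arrays did not overlap (4% of members, against 1.5% of all genes), with a change of -0.35 ± 0.16 (adjusted p = 0.84).

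The remaining subunits had smaller changes with dox. Rela, which encodes the main activating subunit of the canonical dimer, had log2 levels of 11.68 and 11.85 in vehicle and 11.62 and 11.74 in dox, with 11.60, 11.52 and 11.57 in E2 and 11.75 and 11.54 in dox plus E2. Vehicle and dox overlapped, and the changes with dox were -0.08 ± 0.09 without E2 and 0.08 ± 0.08 with it. Nfkb1, which encodes the partner of Rela in that dimer, changed by -0.11 ± 0.10 and -0.14 ± 0.09. Relb encodes the partner of the product of Nfkb2. Levels of Relb on the log2 scale were 7.59 and 7.49 in vehicle, 7.54 and 7.51 in dox, 7.19, 7.86 and 7.70 in E2, and 7.64 and 7.67 in dox plus E2. Its 3 E2 arrays spanned all the others, and the changes with dox were -0.02 ± 0.19 without E2 and 0.08 ± 0.17 with it.

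Ikbkb encodes the catalytic kinase subunit that marks the inhibitors for destruction. Its log2 levels were 8.08 and 8.33 in vehicle, 7.86 and 7.91 in dox, 7.88, 7.97 and 7.88 in E2, and 7.77 and 7.79 in dox plus E2. The vehicle arrays were above all 7 others. The change with dox was -0.32 ± 0.15 without E2 (limma adjusted p = 0.73) and -0.13 ± 0.14 with it (adjusted p = 0.93). The lower value in dox plus E2 than in E2 held on every array, but the difference of the dox effects was 0.19 ± 0.20 (adjusted p = 0.89).

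Some inhibitors of NF-kB are themselves targets of the factor and so are often read as a sign of its activity. None of the tested inhibitors passed the adjusted threshold with dox. Nfkbia, the fast-acting inhibitor whose promoter is printed above, had log2 levels of 9.33 and 9.37 in vehicle and 9.27 and 9.34 in dox, then 9.11, 9.14 and 9.37 in E2 and 9.38 and 9.32 in dox plus E2. The dox groups overlapped those without dox, and its changes were -0.05 ± 0.12 without E2 and 0.15 ± 0.11 with it. Nfkbie, another inhibitor with the consensus in its promoter, changed by -0.16 ± 0.24 and 0.15 ± 0.22. Nfkbib, which was above background on 6 of 9 arrays, changed by 0.25 ± 0.34 and -0.17 ± 0.31, with standard errors wide enough to hide a change of 1.5-fold. Tnfaip2, a gene induced by tumour necrosis factor in endothelial cells, had log2 levels of 10.00 and 9.87 in vehicle, 9.84 and 10.03 in dox, 9.72, 9.77 and 10.06 in E2 and 10.09 and 9.97 in dox plus E2. All its groups overlapped.

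With E2 present, the tested members in dox also lay close to their levels without it. The log2 changes of dox plus E2 against E2 ran from -0.41 to 0.42 with a median of 0.04, where that of all genes was 0.00, and 15 of 25 were positive (60%, against 51% of all genes). None passed, against 0.0738% of all genes, and 2 members (8%) had an unadjusted p under 0.05, against 6.23% of all genes. They were Ptges and Tlr2, both with higher values in dox plus E2. The dox plus E2 and E2 arrays did not overlap for 6 members (24%), against 20.8% of all genes. All 25 intervals lay within 2-fold, and 16 within 1.5-fold.

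Ptges encodes the inducible enzyme that completes the synthesis of prostaglandin E, a stimulator of bone turnover. Its log2 levels were 9.21 and 8.98 in vehicle, 9.38 and 8.99 in dox, 8.86, 8.74 and 9.06 in E2, and 9.23 and 9.25 in dox plus E2. Both dox plus E2 arrays were above the 3 E2 arrays, while vehicle and dox overlapped. The change was 0.35 ± 0.13 with E2 (limma adjusted p = 0.64) and 0.09 ± 0.14 without (adjusted p = 0.93). A second probe of the gene, ILMN_2616028, gave -0.06 ± 0.12 with E2, so the 2 probes disagreed on this value. Over all dox arrays the change of the brighter probe was 0.23 ± 0.10 (adjusted p = 0.80), and that of ILMN_2616028 was -0.03 ± 0.09.

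Tlr2 encodes a receptor for bacterial lipoproteins. Its log2 levels were 6.74 and 6.72 in vehicle, 6.77 and 6.57 in dox, 6.24, 6.11 and 6.00 in E2, and 6.64 and 6.43 in dox plus E2. The 3 E2 arrays were below all others. The change with dox was 0.42 ± 0.20 with E2 (limma adjusted p = 0.78) and -0.06 ± 0.22 without (adjusted p = 0.97). Its difference was 0.48 ± 0.29 (adjusted p = 0.79).

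The dox effect with E2 minus the dox effect without it had a median of 0.15 over the members, where the median of all genes was 0.01, and it was positive for 16 of 25 (64%, against 52.8% of all genes). None of the members and 0% of all genes passed in limma, and 1 member (4%) had an unadjusted p under 0.05, against 6.87% of all genes. If dox acted unequally on the 2 slides, that would enter the value as E2 does, and they cannot be told apart. The difference is also the least precise value, with 18 of 25 intervals within 2-fold and 10 within 1.5-fold, so a moderate difference could not be seen for many members.

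That member was Irf1, a transcription factor induced by interferons and by NF-kB. Its log2 levels were 9.20 and 8.97 in vehicle, 8.87 and 8.69 in dox, 9.09, 8.95 and 8.88 in E2, and 9.02 and 9.43 in dox plus E2. Both dox arrays were below all others, and dox plus E2 replicate 3 was the highest of the 9, whereas replicate 2 of that group lay among the E2 arrays. The change with dox was -0.30 ± 0.14 without E2 (limma adjusted p = 0.71) and 0.25 ± 0.13 with E2 (adjusted p = 0.83). These effects differed by 0.55 ± 0.19, with a 95% interval of 0.16 to 0.94 (limma adjusted p = 0.64). Without dox plus E2 replicate 3, the dox effect with E2 was 0.04, the difference of the dox effects was 0.34 and the change of dox plus E2 against dox was 0.23 (adjusted p = 0.98, 0.72 and 0.67). Further probes of Irf1 gave smaller differences of 0.42 ± 0.34 (ILMN_2649068), 0.27 ± 0.37 (ILMN_2649067) and 0.08 ± 0.23 (ILMN_2599782), all of the same sign. The last of these gave dox effects of -0.08 ± 0.17 without E2 and -0.01 ± 0.16 with it. The probes also differed in dox against vehicle. Log2 levels of ILMN_2649068 were 6.04 and 6.16 in vehicle and 5.65 and 5.80 in dox. Those of ILMN_2649067 were 5.62 and 5.62 in vehicle and 5.42 and 6.02 in dox, where only dox replicate 2 was above background.

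**Figure D3:**
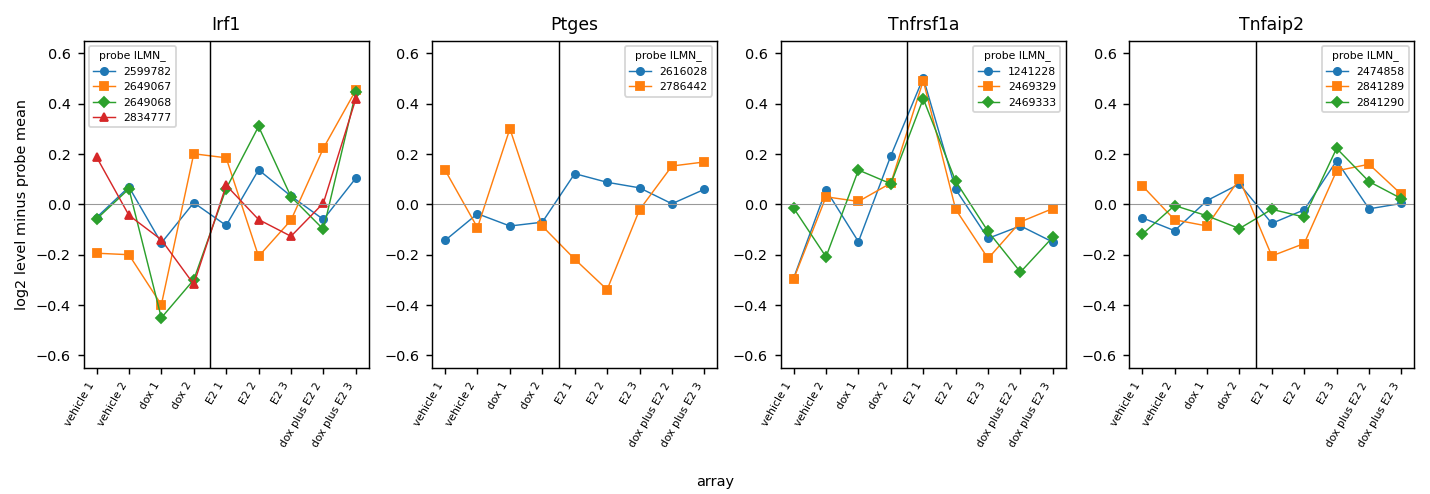
Log2 level of each kept probe minus its own mean over the 9 arrays (vertical axis) on each array (horizontal axis) for the 4 genes with several kept probes; the vertical line separates the slides. The probes of Tnfrsf1a share a peak at E2 replicate 1, and those of Tnfaip2 are all higher at E2 replicate 3 than at E2 replicate 1. The 2 of Ptges part on the E2 arrays, and those of Irf1 are all above their mean at dox plus E2 replicate 3.

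Tnfrsf1a, which encodes the main receptor of tumour necrosis factor, had the next smallest p for the difference after Tlr2. Its log2 levels were 8.92 and 9.25 in vehicle, 9.23 and 9.30 in dox, 9.71, 9.20 and 9.0 in E2, and 9.15 and 9.20 in dox plus E2. E2 replicate 1 was the highest array on all 3 kept probes. Dox overlapped vehicle and dox plus E2 overlapped E2, whereas both dox arrays were above both dox plus E2 arrays. The difference was -0.31 ± 0.22 (limma adjusted p = 0.82), and on the probe ILMN_2469333 it was -0.55 ± 0.19 (adjusted p = 0.77 over all kept probes). Of the other receptors and adaptors, Myd88, the adaptor of most Toll-like receptors, had log2 levels of 10.83 and 10.68 in vehicle, 10.64 and 10.76 in dox, 10.55, 10.57 and 10.63 in E2 and 10.55 and 10.64 in dox plus E2. Dox and control arrays of Myd88 overlapped on both slides, and its difference was 0.07 ± 0.13. Differences were -0.03 ± 0.24 for Tlr4, the endotoxin receptor, and -0.05 ± 0.33 for Il1r1. For Il1rl1, the receptor of the alarmin interleukin encoded by Il33, the difference was -0.13 ± 0.20, and for Traf2, an adaptor at the tumour necrosis factor receptors, it was 0.40 ± 0.35.

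**Figure D4:**
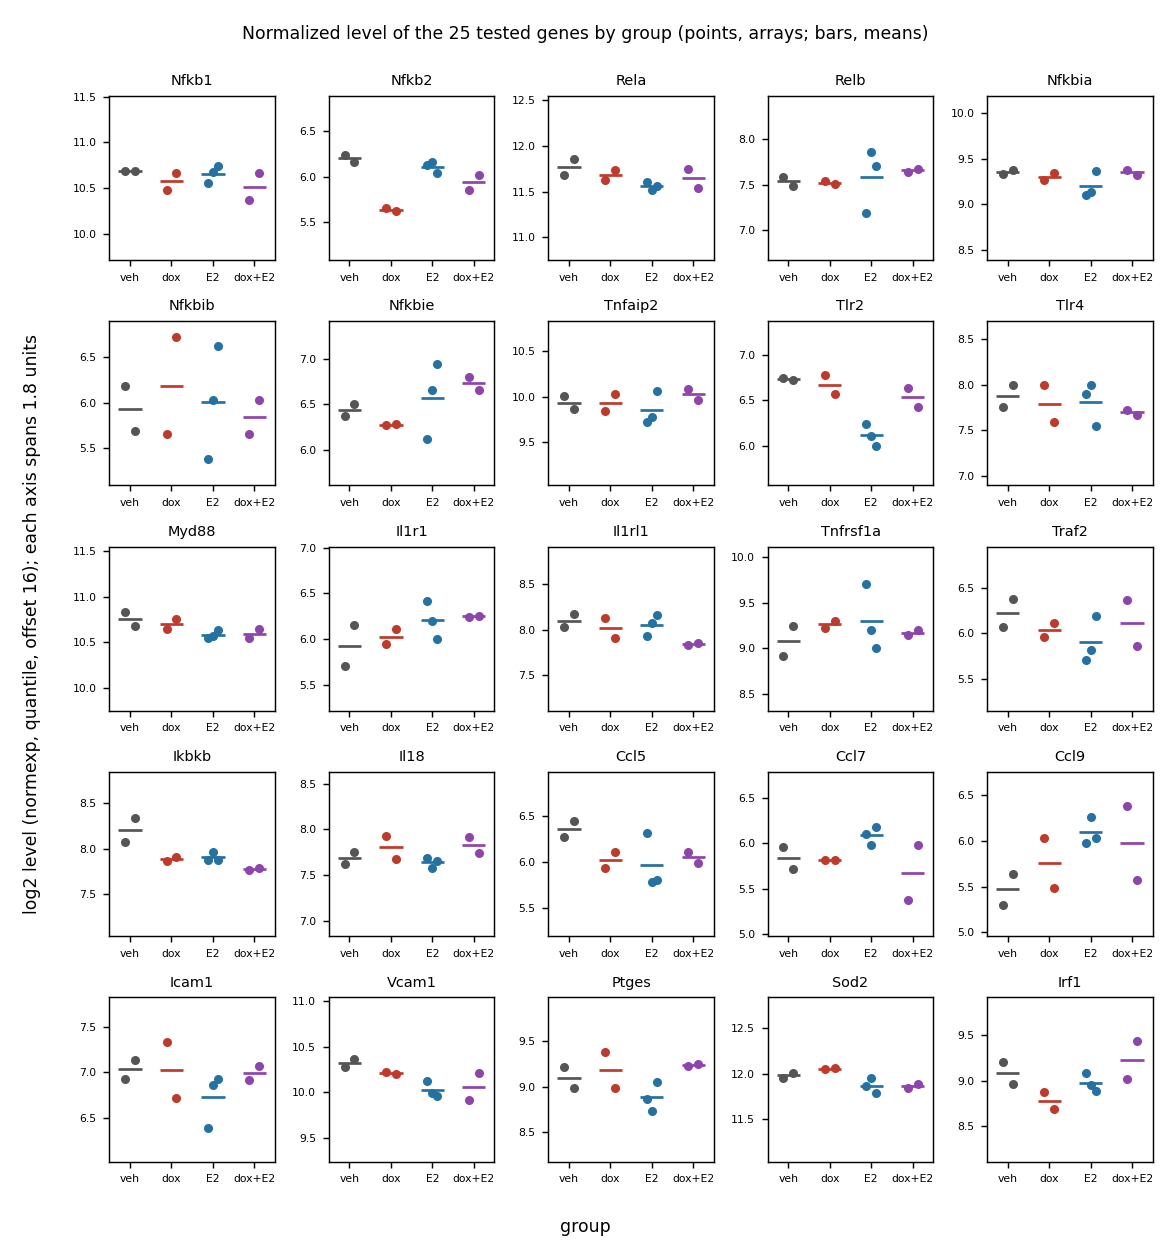
Normalized log2 level (vertical axes, each spanning the same number of units) of the 25 tested genes by group, with a point per array and a bar at the mean. Tlr2 is lowest on the 3 E2 arrays, Nfkb2 and Irf1 are lowest on the 2 dox arrays, and 8 of the 25 genes do not overlap between dox and vehicle (32%, against 38.1% of all genes).

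The secreted proteins that could be tested showed no change past the threshold. Il18, which encodes a cytokine that induces interferon gamma, had log2 levels of 7.62 and 7.76 in vehicle, 7.93 and 7.68 in dox, 7.69, 7.58 and 7.65 in E2 and 7.92 and 7.74 in dox plus E2. Both dox plus E2 arrays were above the E2 arrays, and dox overlapped vehicle. Its changes with dox were 0.11 ± 0.16 without E2 and 0.19 ± 0.15 with it (limma adjusted p = 0.92 and 0.91). Ccl5, an attractant of T cells and monocytes, had log2 levels of 6.27 and 6.45 in vehicle and 5.93 and 6.11 in dox, then 6.31, 5.78 and 5.80 in E2 and 6.11 and 5.99 in dox plus E2. Its dox arrays were below both vehicle arrays, by -0.34 ± 0.25 (adjusted p = 0.84), and with E2 the groups overlapped. Ccl7, a monocyte attractant, changed by -0.02 ± 0.26 and -0.41 ± 0.24. Ccl9, a chemokine that draws osteoclast precursors in mice, was above background on neither vehicle array, on 1 of 2 dox arrays, on all 3 E2 arrays and on 1 of 2 dox plus E2 arrays. Its log2 levels were 5.30 and 5.64 in vehicle, 6.04 and 5.48 in dox, 5.98, 6.26 and 6.04 in E2, and 6.38 and 5.57 in dox plus E2. With each vehicle array raised to at least its lowest level above background, the mean in E2 was 1.29-fold higher. That bound leaves out the scatter among arrays, and the comparison crosses the slides. The fitted change, made without this floor, had a limma adjusted p of 0.25. No fold is given for dox, since dox replicate 2 was not above background and lay between the vehicle arrays.

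The adhesion molecules and Sod2 complete the list. Vcam1 and Icam1 encode surface proteins that hold leukocytes, and their differences of the dox effect were 0.15 ± 0.14 and 0.28 ± 0.31. Sod2, the mitochondrial superoxide dismutase that NF-kB induces, had log2 levels of 11.95 and 12.01 in vehicle, 12.05 and 12.06 in dox, 11.86, 11.96 and 11.79 in E2, and 11.84 and 11.89 in dox plus E2. Its dox arrays were just above the vehicle arrays, by 0.07 ± 0.08, and with E2 the groups overlapped, with a change of -0.01 ± 0.07.

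Pooled over the slides, the 4 dox arrays against the 5 arrays without dox gave the narrowest intervals, within 2-fold for all 25 members and within 1.5-fold for 23. The median change was 0.01, and 15 of 25 were positive (60%, against 48.5% of all genes). None passed, against 0.116% of all genes, and Ptges, Nfkb2 and Ikbkb had an unadjusted p under 0.05 (12% of members, against 5.85% of all genes). For Ptges this holds for its brighter probe only, since the other kept probe gave -0.03 ± 0.09.

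The comparisons that cross the slides carry the slide as well as E2. In E2 against vehicle the members had a median of -0.09 and 7 of 25 were positive (28%, against 46.9% of all genes); none passed, against 1.45% of all genes, and 5 (20%) had an unadjusted p under 0.05, against 15.6% of all genes. Tlr2 changed by -0.62 ± 0.20 (limma adjusted p = 0.11). Vcam1 had log2 levels of 10.28 and 10.36 in vehicle and 10.22 and 10.20 in dox on the first slide, and 10.12, 9.99 and 9.95 in E2 and 9.92 and 10.21 in dox plus E2 on the other. All E2 arrays of Vcam1 were below the vehicle arrays, by -0.30 ± 0.10 (adjusted p = 0.12). Such a lack of overlap between E2 and vehicle was seen for 9 members (36%), against 34.3% of all genes. Values for Rela and Ikbkb were -0.20 ± 0.08 (adjusted p = 0.21) and -0.30 ± 0.14 (adjusted p = 0.29). The fifth was Ccl9, for which only a bound on the mean is given above, because neither vehicle array was above background. In dox plus E2 against dox, 12 of 25 were positive (48%, against 49.7% of all genes) with a median of -0.03; none passed, against 0.232% of all genes, and 2 (8%) had an unadjusted p under 0.05, against 10.8% of all genes. They were Irf1 at 0.44 ± 0.14 (adjusted p = 0.21) and Sod2 at -0.19 ± 0.08 (adjusted p = 0.35). The dox plus E2 and dox arrays did not overlap for 10 members (40%), against 39.7% of all genes.

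**Figure D5:**
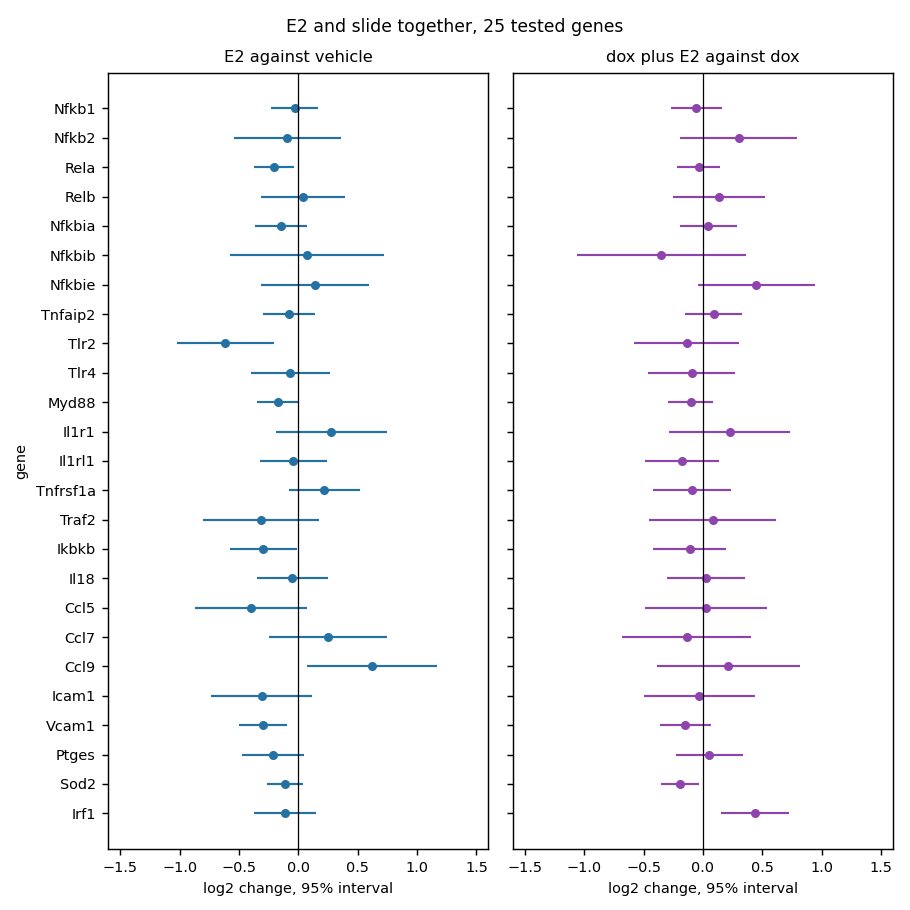
Log2 change (points) with its 95% interval (lines) of the 25 tested genes for E2 against vehicle and for dox plus E2 against dox, both across slides. In the first panel Tlr2, Vcam1, Rela and Ikbkb lie below 0, and Ccl9, whose vehicle arrays were not above background, lies above it. In the second Irf1 lies above 0 and Sod2 below it. None passed after adjustment over all genes.

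Other genes of the pathway mostly stayed short of the threshold too. Of 58 further NF-kB signalling genes, 45 were tested and none passed in any of the 6 comparisons; their median change was -0.06 for dox against vehicle, -0.02 for dox plus E2 against E2 and 0.03 for the difference. Of 38 further inflammatory output genes, 21 were tested, and the 1 that passed anywhere was Mmp13, a collagenase of bone and cartilage, which fell by 0.59 on the log2 scale in E2 against vehicle (SE 0.12, limma adjusted p = 0.00817). Its changes with dox did not pass in either setting.

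Other gene groups did move with the slides and with dox replicate 2. Immediate early genes respond to handling and to growth factors within minutes. Of 15 tested, 14 were lower in E2 against vehicle, and 9 of them passed the adjusted threshold. In dox plus E2 against dox 11 were lower, and 3 of them passed. Of all genes, 0.832% and 0.211% passed with lower values in these 2 comparisons. Fos had log2 levels of 10.06, 10.23 and 10.41 in vehicle and dox replicate 1, and of 7.52 in dox replicate 2 and 7.12 to 7.33 on the second slide. All 4 tested markers of heart and slow muscle also fell past the threshold in both comparisons across slides. Summed levels of the 5 such markers with a probe were 1392 to 2175 on the first slide and 178 to 485 on the other. These sums include Tnni1, which was above background on no array. The part of these gene groups in the values of Tlr2, Vcam1, Irf1 and Sod2 was not tested. Without dox replicate 2, the change of dox against vehicle was -0.55 for Nfkb2, -0.34 for Ikbkb and -0.21 for Irf1 (limma adjusted p = 0.74, 0.73 and 0.83), and the difference of the dox effects for Irf1 was 0.46 (adjusted p = 0.55).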

How the data were processed

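For each probe and array, the main deposited table gives a mean bead intensity and a detection p-value, per the file headers. Per the submitters' processing notes it was made with GenomeStudio 2011.1. The deposited intensity values are linear, with neither background subtraction nor scaling between arrays, as the values show, and the deposited detection p-values are multiples of 1 in 798. No source used here gives the genome build behind the probes. A second deposited table of scaled intensity values, within 0.515% of a quantile normalization of the first, served as an alternative. Symbols were updated through the RefSeq gene table of GRCm38.p6: the symbol was current for 20733 probes, 3871 took a new one by synonym and 1093 stayed as in the table.

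The neqc function of limma 3.58.1 (R 4.3.3) turned the deposited intensities into log2 levels, by normexp background correction with the negative control distribution inferred from detection p, an added offset of 16 and quantile normalization. Quantile normalization hides a change shared by most genes, and changes of dim probes are shrunk by the offset. A probe was kept if 2 or more arrays had it at a detection p under 0.05 (12912 probes), and each gene was represented by its probe of highest mean (9490 genes). A single limma fit with a mean per group and an intensity trend in the variance prior gave two-sided moderated tests, Benjamini-Hochberg adjusted over all genes; the pooled dox comparison had slide as a block. Errors of changes are standard errors, and intervals are at 95%. The number of arrays limits the precision. Python 3.11.15 with matplotlib 3.10.9 drew the figures.

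The members and lists were chosen with earlier results of these data known. Every member is named. Values on every array are given for the 3 members of smallest unadjusted p in each dox comparison and in the difference, and for the brightest of each role. Values of Nfkbia, Ccl9 and Vcam1 were added after they were seen, as was the choice of promoters printed.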

Additional observations from a re-analysis of the deposited data

How the results depend on the processing

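The count of members past the threshold was 0 in all 6 comparisons, and it was recomputed with an offset of 50, without background correction, on the authors' normalized values, with median centring, with other detection filters and thresholds, with other rules for a gene's probes, without an intensity trend, with array weights, with only the compared groups, without a slide term in the pooled dox comparison, and without each replicate in turn. It moved in 1 case: with array weights 2 members passed in E2 against vehicle, and the cause was not tested. They were Tlr2 (-0.62, limma adjusted p = 0.0491) and Vcam1 (-0.31, adjusted p = 0.0423). Those weights also raised the number of all genes past the threshold in that comparison, to 401 of 9490 from 138 in the main fit. Over the other alternatives of that comparison neither Tlr2 nor Vcam1 passed. With a replicate block the count was 0 in every comparison. Arrays with the same number had correlations of their deviations from -0.113 to 0.025. In a group of 2 arrays the deviations mirror each other, so few of these values are independent. They cannot decide whether the numbers pair the samples. Without each replicate in turn the counts were 0 throughout, where a group left with 1 array is assumed to vary like the others. Of 3269 recomputed member values, 152 had another sign, none of them past the threshold. The median over members ranged from -0.12 to -0.03 for dox against vehicle, from 0.02 to 0.07 for dox plus E2 against E2 and from 0.09 to 0.18 for their difference. The difference for Irf1 ranged from 0.33 to 0.76 (adjusted p 0.445 to 0.999). No fit with slide as a term could be made for the comparisons across slides.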
